A study of Mus musculus with 2 samples.

Results

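The genes described here encode the general pre-mRNA splicing factors of the cell, namely the heterogeneous nuclear ribonucleoproteins (hnRNPs), the serine/arginine-rich (SR) proteins, the subunits of the SF3A and SF3B complexes, and the Sm and U1/U2 small nuclear ribonucleoprotein (snRNP) proteins. They were taken by symbol, as every gene whose name starts with Hnrnp, Srsf and a digit, Sf3a or Sf3b and a digit, or Snrp, with pseudogene symbols ending in -ps left out. The rule found 52 of the 24532 genes in the count table, comprising 20 hnRNP, 11 SR, 3 SF3A, 6 SF3B and 12 Sm and U1/U2 snRNP genes. No measured value was used to choose them, and 51 of them were past the expression filter used throughout (A > 0, a mean level above 1 TPM, where TPM is the read count scaled by transcript length and library depth).

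In splicing, U1 snRNP marks the start of an intron and U2 snRNP marks its branch point, and both particles are built on a ring of Sm proteins around a small nuclear RNA. SF3A and SF3B are the parts of U2 snRNP that hold it at the branch point. SR proteins bind exons and mostly favour the use of nearby splice sites, whereas hnRNPs coat the nascent transcript and often favour skipping, and the balance between them sets many alternative exons.

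RNA was sequenced from cardiac myofibroblasts, the collagen-secreting cells of the infarct, isolated from C57BL/6 mice 3 days after myocardial infarction. Per the study's methods these were wild-type C57BL/6J males operated at 8 to 10 weeks of age, and the cells were the plastic-adherent, CD45-negative fraction of the digested infarct, grown in serum. Both groups were transfected with 12.5 nM siRNA and Lipofectamine RNAiMAX and cultured for 72 h, 1 with a control siRNA (siCtrl) and 1 with an siRNA against *Vgll3* (siVgll3), which encodes a transcriptional cofactor. The comparison asks which transcripts differ when *Vgll3* is depleted.

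Each condition had 1 library, so there was no replicate check, no test and no p-value, and every difference below is a difference between 2 libraries. M is log2 of TPM in siVgll3 over TPM in siCtrl, and A is log2 of the mean TPM. A gene was called lower at M below −0.5 and higher at M above 0.5, with A > 0. The 95% interval given with an M comes from the read counts (Clopper-Pearson) and covers counting error only. In bulk RNA, fewer cells of a type and less RNA per cell cannot be told apart.

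The libraries held 140815237 (siCtrl) and 125789276 (siVgll3) reads counted on genes. *Vgll3* itself had 42925 and 16524 reads, or 202 and 84.0 TPM (M −1.27). All 11 myofibroblast markers were at A > 0, and their summed level was 19025 TPM in siCtrl and 15048 TPM in siVgll3. The leukocyte markers summed to 13.4 and 6.10 TPM, with 0 reads for *Ptprc*, *Adgre1*, *Itgam* and *Cd3e* in at least 1 library. Of 6 cardiomyocyte markers 5 were at 0 reads in at least 1 library, and *Tnnt2* was at 60.0 and 10.4 TPM. The 5 endothelial markers summed to 24.3 and 20.0 TPM. The part of these markers in the results below was not tested.

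The splicing factor genes are abundant and many of them have near-identical copies, so it matters which gene a read was assigned to. Coding sequences from GENCODE vM21 were compared with all other transcripts of that release. At 95% identity or more over at least 60% of the coding sequence, 19 of the 51 genes had a near-identical gene elsewhere in the genome, with 21 such genes for *Hnrnpa3* and 9 for *Hnrnpa1*. Only *Hnrnpa3* and *Hnrnpa1* had copies with rows of their own in the count table. *Hnrnpa3* (chr2:75659105-75669407) was matched by *Gm6793* (chr8:112013433-112015036), with 1045 identical positions in an alignment of 1069. *Hnrnpa1* (chr15:103239943-103246698) was matched by *Gm10052* (chr9:123688848-123690275), with 752 identical positions of 752, and by *Gm5643* (chrX:142297505-142299237), with 736 of 745. Each is the most identical single stretch, and both end at position 752 of the 1119 nt coding sequence of *Hnrnpa1*. Identity over the rest is not given. Exons of 23 of the 51 genes overlapped those of another gene, 6 of them on the same strand, and the strand setting of the counting is not given in the sources used here. RefSeq lists all 3 copies as transcribed pseudogenes, and all coordinates are those of GRCm38.p6. The coding stretches below are shown because a short read from them can fit both genes or tell them apart by a single base. Positions 275 to 302 of the *Hnrnpa3* coding sequence hold a single base that tells the gene from its copy, in capitals, and the first 28 bases of *Hnrnpa1* hold none.
Hnrnpa3: caatgtgtgctcggccaCacaaggttga
Gm6793: caatgtgtgctcggccaTacaaggttga
Hnrnpa1: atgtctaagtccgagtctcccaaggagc
Gm10052: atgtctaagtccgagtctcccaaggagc

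As a whole, the splicing factor genes were at almost the same level in both libraries. They summed to 8384 TPM in siCtrl and 8523 TPM in siVgll3, which was 0.840% and 0.853% of the total. The median M of the 51 genes was 0.00, with quartiles of −0.11 and 0.12 and a range from −0.37 to 0.78. None of the 51 was lower, against a background of 11.4% of all 11754 genes with A > 0, and 1 (*Snrpn*) was higher, against a background of 5.73%. With the fold halved on the log2 scale to 0.25, 3 genes lay below −0.25 (*Hnrnpdl*, *Hnrnpa3* and *Hnrnpm*; background 25.7%) and 3 above 0.25 (*Snrpn*, *Hnrnpa1* and *Hnrnpab*; background 14.4%). The other 45, or 88.2%, lay between these bounds, compared with 59.9% of all genes with A > 0.

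M also spread less among all abundant genes. The lower quartile of A among the splicing factor genes corresponded to a mean of 76.8 TPM. Of the 2166 genes at or above that level, 70.8% lay within 0.25 of zero, 6.69% were lower and 3.55% were higher, and their median M was 0.01. The median M over all 11754 genes was −0.05, with quartiles of −0.26 and 0.13.

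**Figure D1:**
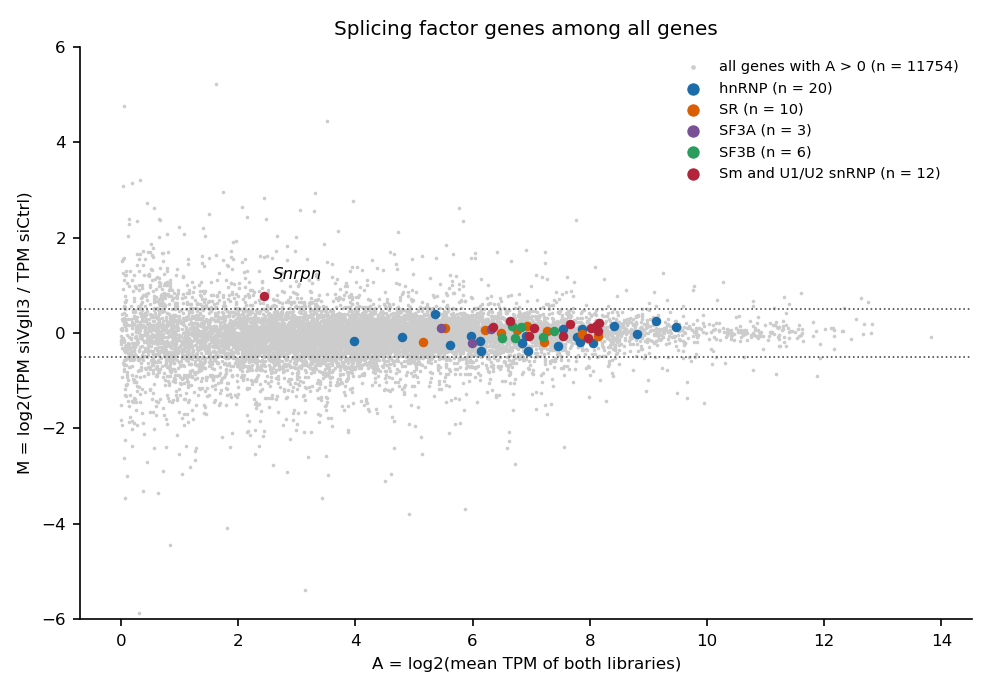
M against A (both log2, from TPM) for all genes with A > 0 in grey and the splicing factor genes coloured by family. Dotted lines mark M of −0.5 and 0.5, and of the 51 coloured points only *Snrpn*, at M 0.78, lies outside them.

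Counting error was small beside these differences. The 51 genes had a median of 27192 reads over both libraries, and the lowest count in either library was 525. The counting interval lay wholly above 0 for 23 genes and wholly below 0 for 24, and it held 0 for *Sf3b5*, *Srsf3*, *Srsf7* and *Snrpg*. Such an interval covers read sampling on the TPM scale, and says nothing about how far separate cultures would differ. The numbers of genes on each side of 0 depended on that scale. From reads scaled by library size alone, M was 0.09 for *Sf3b5*, 0.04 for *Srsf3*, 0.06 for *Srsf7* and 0.09 for *Snrpg*. On that scale *Hnrnpa2b1*, whose TPM interval lay below 0, was at 0.02.

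The remaining gene, *Srsf12*, which encodes an SR protein, was close to silent. It had 5 reads in siCtrl and 20 in siVgll3, or 0.027 and 0.113 TPM (M 2.09, A −3.84), and it is left out of the counts above.

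**Figure D2:**
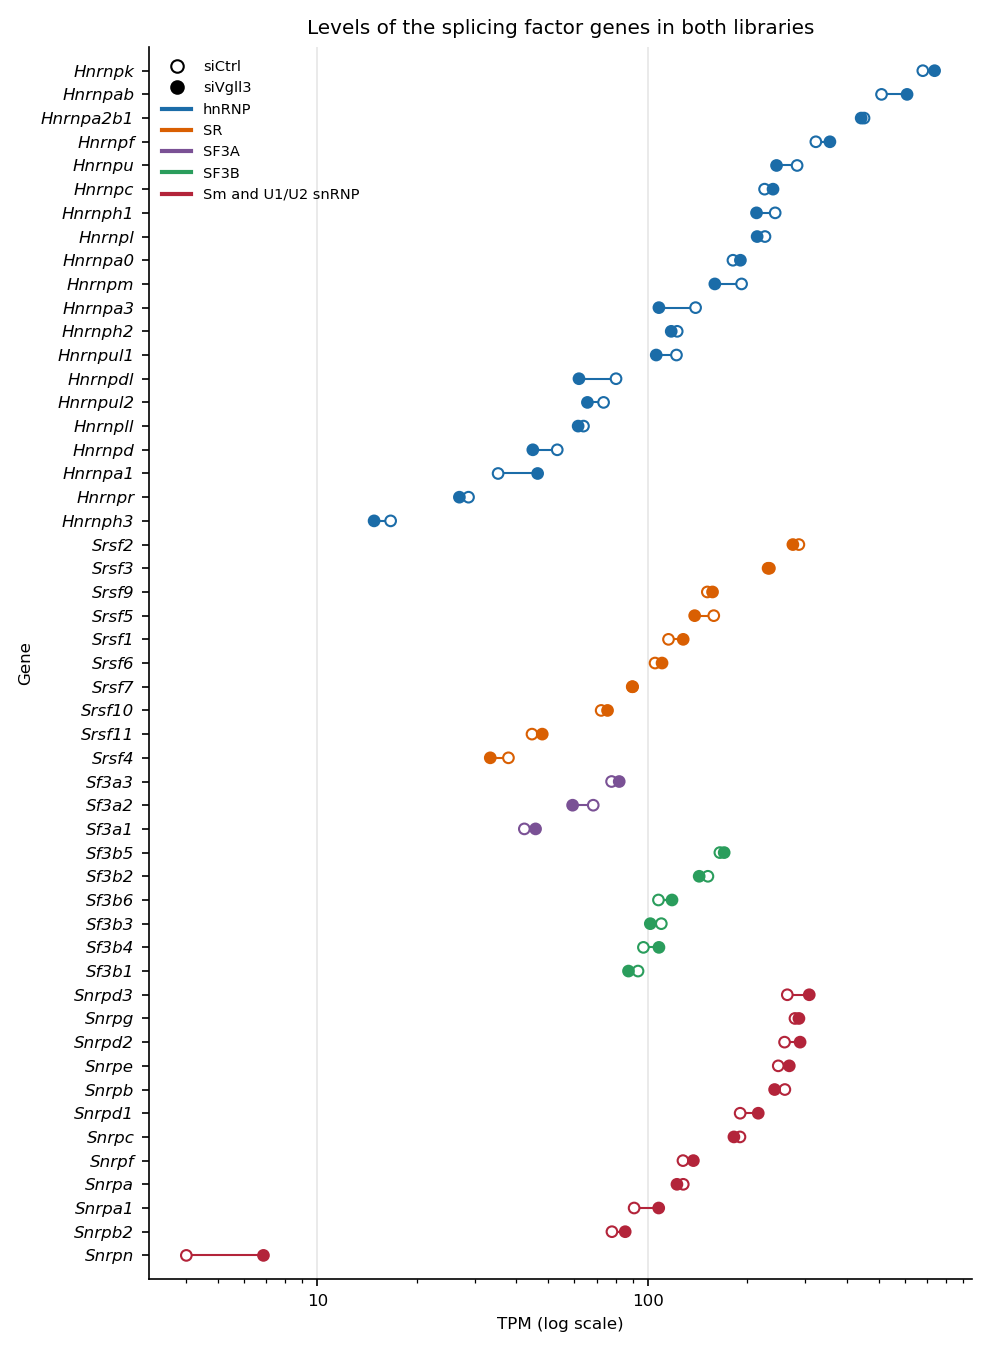
TPM (log scale) of each of the 51 genes in siCtrl (open circles) and siVgll3 (filled circles), grouped by family and ordered by mean TPM. The circles of a gene nearly coincide for most genes, 32 genes are above 100 TPM in both libraries, and *Snrpn* is the lowest at 4.01 and 6.86 TPM.

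The hnRNP genes held 4053 TPM in siCtrl and 4065 TPM in siVgll3, close to the sum of all other families together. Their median M was −0.09, 14 of the 20 were below 0 (6700 of all 11754 genes with A > 0 were), and none was lower or higher by the fold used. Of the 2166 genes at or above a mean of 76.8 TPM, 1037 were below 0. *Hnrnpk*, whose protein binds poly(C) stretches of RNA and DNA, was the most abundant splicing factor gene, at 680 and 739 TPM in siCtrl and siVgll3 (121747 and 122454 reads, M 0.12, interval 0.11 to 0.13).

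The type groups used here follow the gene symbols and not sequence similarity. The A/B type genes, whose proteins carry paired RNA recognition motifs and a glycine-rich tail, covered nearly the whole range of hnRNP differences. *Hnrnpab* was at 510 and 610 TPM in siCtrl and siVgll3 (80640 and 89164 reads, M 0.26, interval 0.24 to 0.27). *Hnrnpa2b1*, whose protein also serves in RNA transport, was at 452 and 443 TPM (64951 and 58816 reads, M −0.03, interval −0.04 to −0.01). *Hnrnpa0* was at 181 and 191 TPM (M 0.08). Thus *Hnrnpab* was more abundant in siVgll3, whereas *Hnrnpa2b1* and *Hnrnpa0* were within 0.1 of equal.

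*Hnrnpa1*, which encodes the best studied exon-silencing hnRNP, had the largest M of the family and the least certain value. Its row held 4194 reads in siCtrl and 5131 in siVgll3, or 35.2 and 46.4 TPM (M 0.40, interval 0.34 to 0.46). The copy *Gm10052* held 80134 and 73470 reads, or 904 and 896 TPM (M −0.01), and *Gm5643* held 20.2 and 19.9 TPM. The *Hnrnpa1* row was therefore 3.67% of the summed TPM of these 3 rows in siCtrl and 4.82% in siVgll3. Summed, the 3 rows were at 960 and 962 TPM (M 0.00, interval −0.01 to 0.02, and 0.06 from reads scaled by library size alone). This was above *Hnrnpk* in TPM, which divides by the length of each row. In reads the 3 rows held 86564 and 80640, below the 121747 and 122454 of *Hnrnpk*. Which of these reads came from *Hnrnpa1* itself cannot be told from the tables.

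*Hnrnpa3*, a close relative of *Hnrnpa1*, showed the same ambiguity with the opposite sign. Its row held 44998 reads in siCtrl and 27951 in siVgll3, or 140 and 108 TPM (M −0.37, interval −0.39 to −0.35). The copy *Gm6793* was at 354 and 399 TPM (32955 and 34378 reads, M 0.17, interval 0.15 to 0.19). Summed over both rows the level was 494 and 507 TPM (M 0.04, interval 0.02 to 0.05). From CPM, reads scaled by library size alone, the sum was lower in siVgll3, with 77953 and 62329 reads (M −0.16). The sign of the sum thus depended on the scale.

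*Hnrnpa3* also stood apart in how its reads turned into TPM. Reads per TPM imply a transcript length, which was 5056 nt in siCtrl and 4382 nt in siVgll3, and the 3 transcripts listed for the gene are 5150, 1654 and 1140 nt long. For 50 of the 51 genes this length term moved by less than 0.05 on the log2 scale between the libraries, and for *Hnrnpa3* it moved by 0.21, where 0.579% of all genes with A > 0 moved by more than 0.2. Computed from CPM in place of TPM, M of *Hnrnpa3* was −0.52, which is past the fold for lower genes. The *Hnrnpa3* row thus differed in level by either measure, but whether it passed the fold depended on the length used for it.

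**Figure D3:**
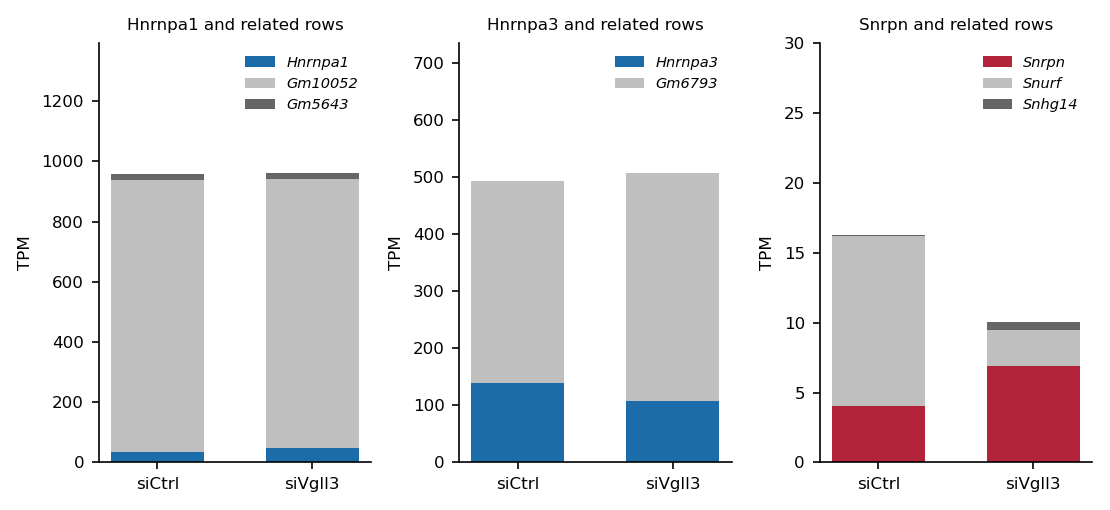
TPM of *Hnrnpa1*, *Hnrnpa3* and *Snrpn* (coloured) stacked with the rows that share their sequence or their locus (grey), in siCtrl and siVgll3. The stacks of *Hnrnpa1* and *Hnrnpa3* are of nearly equal height in both libraries, whereas the stack of *Snrpn* is 16.2 TPM in siCtrl and 10.0 TPM in siVgll3, with the coloured part larger in siVgll3.

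Away from the A/B type, the 4 lowest hnRNP values were those of *Hnrnpdl*, *Hnrnpm*, *Hnrnpd* and *Hnrnpu*. *Hnrnpdl*, a relative of the AU-rich element binding protein encoded by *Hnrnpd*, was at 80.2 and 61.9 TPM in siCtrl and siVgll3 (14077 and 10062 reads, M −0.37, interval −0.41 to −0.34). *Hnrnpd* was at 53.2 and 44.9 TPM (22851 and 17859 reads, M −0.25, interval −0.27 to −0.22). Both D type genes were thus less abundant in siVgll3, and neither had a near-identical gene in the reference.

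*Hnrnpm* was at 192 and 160 TPM in siCtrl and siVgll3 (30198 and 23247 reads, M −0.27, interval −0.29 to −0.24). *Hnrnpu*, whose protein, also known as scaffold attachment factor A, links chromatin and RNA, was at 283 and 245 TPM (66377 and 53223 reads, M −0.21, interval −0.22 to −0.19). Its relatives *Hnrnpul1* and *Hnrnpul2* were at 122 and 106 TPM (M −0.20) and at 73.5 and 65.7 TPM (M −0.16). All 3 U type genes thus lay below 0 by a similar amount.

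The F/H type proteins bind G-rich runs near exons, and their genes were divided. *Hnrnpf* was at 323 and 356 TPM in siCtrl and siVgll3 (M 0.14), whereas *Hnrnph1* was at 243 and 213 TPM (M −0.19). *Hnrnph2* and *Hnrnph3* lay below 0 as well, at M of −0.06 and −0.17. *Hnrnph2* made up 33.6% of the summed TPM of *Hnrnph1* and *Hnrnph2* in siCtrl and 35.6% in siVgll3.

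The other hnRNP genes differed little. *Hnrnpc*, whose protein packages nascent RNA and binds U-runs, was at 226 and 239 TPM (M 0.09). *Hnrnpl*, whose protein binds CA repeats, was at 226 and 214 TPM, and its paralogue *Hnrnpll* was at 63.9 and 61.6 TPM. *Hnrnpr* was at 28.7 and 26.9 TPM. The *Hnrnpll* share of the summed TPM with *Hnrnpl* was 22.0% in siCtrl and 22.3% in siVgll3.

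**Figure D4:**
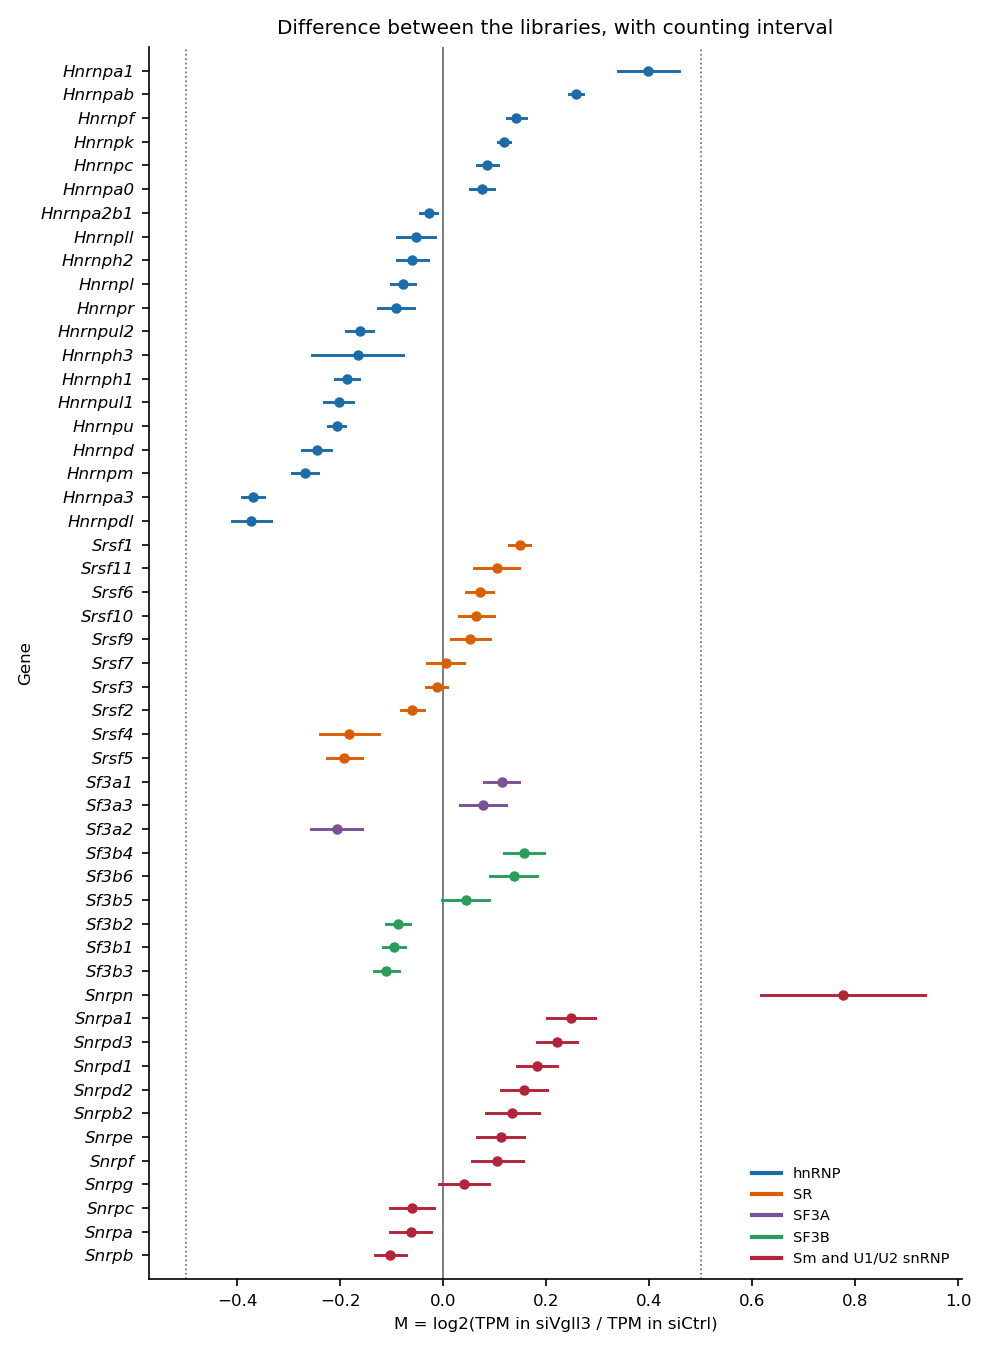
M of each of the 51 genes with its 95% counting interval (line), grouped by family and ordered by M, with dotted lines at −0.5 and 0.5. Points of the hnRNP family spread from −0.37 to 0.40 with 14 of 20 below 0, and 9 of the 12 Sm and U1/U2 snRNP points lie above 0.

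The SR genes had 1296 TPM in siCtrl and 1288 TPM in siVgll3, a median M of 0.03 over the 10 genes with A > 0, and no gene beyond 0.25 in either direction. *Srsf2*, whose protein binds exonic enhancers and also acts in transcription elongation, was the most abundant at 287 and 275 TPM in siCtrl and siVgll3 (34846 and 30928 reads, M −0.06, interval −0.08 to −0.04). *Srsf3*, which encodes the smallest SR protein, was at 234 and 231 TPM (38883 and 35703 reads, M −0.01, interval −0.03 to 0.01). *Srsf9* was at 152 and 157 TPM (11266 and 10820 reads, M 0.05, interval 0.01 to 0.09). The 3 most abundant SR genes were therefore within 0.1 of equal.

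The extremes of the SR family were *Srsf1* and *Srsf5*. *Srsf1*, which encodes the founding SR protein, was at 116 and 128 TPM in siCtrl and siVgll3 (M 0.15). *Srsf5* was at 158 and 139 TPM (M −0.19), and *Srsf4*, whose protein is closely related to that of *Srsf5*, was at 37.9 and 33.4 TPM (M −0.18). *Srsf6* belongs to the same subgroup and lay on the other side of 0, at 105 and 110 TPM (M 0.07). *Srsf10*, whose protein acts as a repressor when dephosphorylated, was at 72.3 and 75.6 TPM (14078 and 13340 reads, M 0.06, interval 0.03 to 0.10), with a length term of 0.03. The remaining genes *Srsf7* and *Srsf11* had M of 0.00 and 0.10.

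The SF3A and SF3B genes were also nearly level. The 3 SF3A genes, whose proteins form a trimer, summed to 188 TPM in siCtrl and 187 TPM in siVgll3. *Sf3a2* was at 68.4 and 59.2 TPM (7310 and 5859 reads, M −0.21, interval −0.26 to −0.16), while *Sf3a1* and *Sf3a3* lay above 0 at M of 0.11 and 0.08. The genes of this trimer thus lay on both sides of 0.

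The 6 SF3B genes summed to 726 TPM in siCtrl and 729 TPM in siVgll3, with M from −0.11 to 0.16 and a median of −0.02, which was above 0 under each other scaling tried. *Sf3b5*, which encodes a small subunit, was the most abundant at 165 and 170 TPM (7750 and 7390 reads, M 0.04, interval 0.00 to 0.09). *Sf3b2* was at 152 and 143 TPM (31401 and 27343 reads, M −0.09, interval −0.11 to −0.06), and *Sf3b6*, which encodes the subunit that contacts the branch point adenosine, was at 108 and 118 TPM (7679 and 7811 reads, M 0.14, interval 0.09 to 0.18). *Sf3b1*, which encodes the large scaffold protein, was at 93.5 and 87.5 TPM (M −0.10), *Sf3b3* had M −0.11 and *Sf3b4* had M 0.16. The 3 genes for large subunits (*Sf3b1*, *Sf3b2* and *Sf3b3*) lay below 0 and the 3 for smaller ones above it. These 6 genes lay within a narrow band of level, the most abundant at 1.77 times the least abundant in siCtrl and at 1.95 times in siVgll3.

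The Sm and U1/U2 snRNP genes were the family with the highest median, 0.12, and 9 of the 12 lay above 0 (5054 of all 11754 genes did). Of the 2166 genes at or above a mean of 76.8 TPM, 1129 lay above 0. The summed level of the snRNP family was 2121 TPM in siCtrl and 2254 TPM in siVgll3. Of the 7 Sm ring genes, whose proteins assemble in equal numbers around each small nuclear RNA, 6 lay above 0. The most abundant by mean of both libraries was *Snrpd3*, at 265 TPM in siCtrl and 308 TPM in siVgll3 (10203 and 11004 reads, M 0.22, interval 0.18 to 0.26).

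*Snrpg* was at 279 and 287 TPM (7003 and 6663 reads, M 0.04, interval −0.01 to 0.09) and *Snrpd2* at 260 and 289 TPM (8087 and 8340 reads, M 0.16, interval 0.11 to 0.20). *Snrpd1* was at 190 and 216 TPM (10178 and 10686 reads, M 0.18, interval 0.14 to 0.22), and *Snrpe* and *Snrpf* had M of 0.11 and 0.10. The exception in the ring was *Snrpb*, at 260 and 242 TPM (18617 and 16041 reads, M −0.10). The ring genes as a set kept to a narrow band of level, from 128 to 279 TPM in siCtrl and from 137 to 308 TPM in siVgll3, and their sum was 1630 and 1748 TPM.

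Of the 4 genes for particle-specific proteins taken by the symbol rule, the 2 U2 genes lay above 0 and the 2 U1 genes below it. *Snrpa1* and *Snrpb2*, which encode the U2 proteins A′ and B″, were the U2 genes. *Snrpa1* was at 90.9 and 108 TPM in siCtrl and siVgll3 (7259 and 7974 reads, M 0.25, interval 0.20 to 0.29), and *Snrpb2* had M 0.13. *Snrpa* and *Snrpc*, which encode the U1 proteins A and C, were both at M −0.06, with 128 and 123 TPM for *Snrpa* and 190 and 182 TPM for *Snrpc*. The median M of all genes with A > 0 was −0.05, so these U1 genes lay close to the typical gene. From reads scaled by library size alone, *Snrpa* was at −0.015 and *Snrpc* at −0.010, and *Snrpa1* and *Snrpb2* at 0.30 and 0.18. Other genes of these particles did not keep to an order of U2 above and U1 below 0. *Snrnp70*, for the U1 70K protein, had M 0.06, and the SF3A and SF3B genes lay on both sides of 0.

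*Snrpn*, the single gene past the fold, lies in the imprinted region of chromosome 7 (chr7:59982495-60450177) and encodes a paralogue of the SmB protein of *Snrpb* that is best known from brain. It was the least abundant of the 51 genes. Its row held 525 reads in siCtrl and 840 in siVgll3, or 4.01 and 6.86 TPM (M 0.78, interval 0.62 to 0.94). It made up 1.52% of the summed TPM of *Snrpn* and *Snrpb* in siCtrl and 2.76% in siVgll3, and their coding sequences share 80.9% of positions over the aligned 686 nt.

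The row that shares its locus lay on the other side of 0. *Snurf* (chr7:59982495-60005199), which encodes a small protein from the first exons of a transcript that also carries the *Snrpn* coding sequence, had 1573 reads in siCtrl and 311 in siVgll3, or 12.2 and 2.60 TPM (M −2.23, interval −2.41 to −2.05). *Snurf* and *Snrpn* overlap on the same strand and end at the same coordinate, so reads from the shared exons fit both. Summed over these 2 rows, the level was 16.2 TPM in siCtrl and 9.46 TPM in siVgll3 (2098 and 1151 reads, M −0.78, interval −0.88 to −0.67), the reverse of the sign of *Snrpn* alone. *Snrpn* took 24.7% of that sum in siCtrl and 72.5% in siVgll3.

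Another row of the region, the long noncoding RNA *Snhg14* (chr7:59272737-60450177), was at 0.031 and 0.576 TPM in siCtrl and siVgll3 (48 and 825 reads), below the filter of A > 0. With *Snhg14* included, the 3 rows held 2146 and 1976 reads, which is M 0.04 from CPM and −0.69 from TPM. Whether *Snrpn* transcripts differed between the libraries, or whether reads of 1 transcription unit were divided differently among its rows, cannot be told apart from these tables. The call of *Snrpn* as higher therefore rests on its own row alone.

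M was related to transcript length among these genes. Across the 51 genes, Spearman's rho between M and the length implied by reads per TPM in siCtrl was −0.36, and it was −0.13 across all 11754 genes with A > 0; genes of 1 library pair are not independent points, so no p-value is given. The 8 splicing factor genes of up to 1000 nt, which were 6 Sm ring genes with *Snrpc* and *Sf3b5*, had a median M of 0.11, against 0.02 for all 944 genes of that length. The 14 of over 3000 nt had a median of −0.09, against −0.08 for all 5438. Among all genes at or above a mean of 76.8 TPM, the shortest class had a median of 0.02 and the longest −0.05. The classes between did not step down steadily, with 0.04 at 1000 to 2000 nt and 0.01 at 2000 to 3000 nt. The snRNP family, which had the highest median M, thus held most of the shortest transcripts. Every hnRNP gene except *Hnrnpa1* had an implied length above 2000 nt. The part of length in the family differences was not tested.

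**Figure D5:**
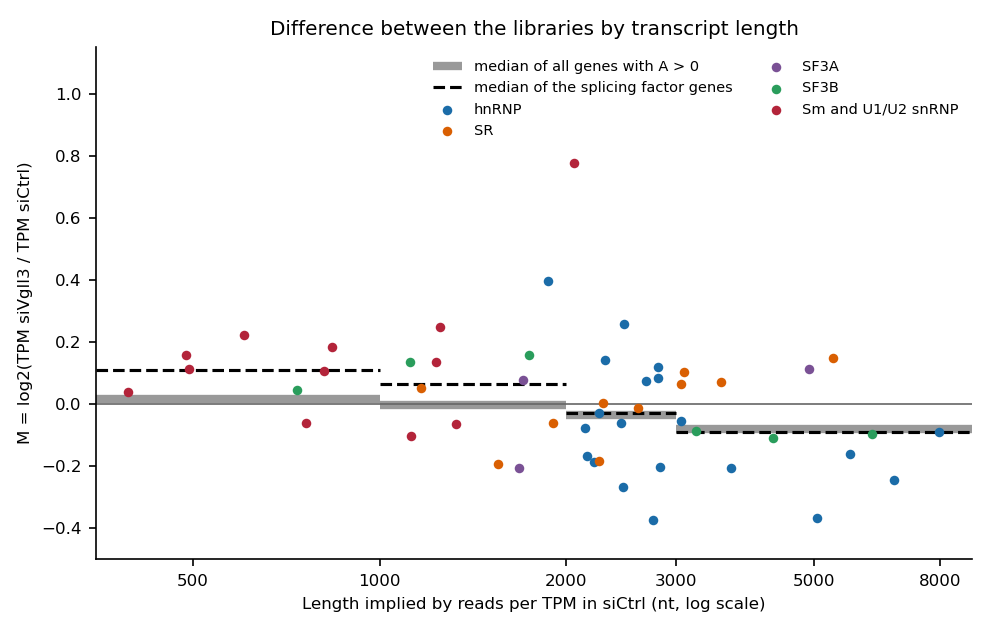
M against the transcript length implied by reads per TPM in siCtrl (nt, log scale), with the median of all genes with A > 0 (grey bars) and of the splicing factor genes (dashed lines) in 4 length classes. The medians of the splicing factor genes step down from 0.11 in the shortest class to −0.09 in the longest, and those of all genes from 0.02 to −0.08.

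The promoters of these genes were searched for short motifs. RefSeq promoter windows of 300 bases (GRCm38.p6, from 250 before to 50 after an annotated start) matched 45 of the 51 genes. A gene was counted if any of its windows held the letters. The letters CCGGAAGT, a strong ETS factor motif, were found on either strand in 9 of the 45 genes (20.0%). They were in 9.68% of the 9363 genes with A > 0 that had a window. The shorter core CCGGAA, contained in that motif, was in 24 of the 45 genes (53.3%) and in 32.9% of those 9363. Counted per window, an unlike measure, the shares of all 32851 windows were 3.89% and 14.9%. Examples from each family are printed on the gene's strand, with the motif in capitals, because they show how close to the annotated start it can lie.
Hnrnpf (chr6:117900280-117900307, + strand): gggctgcacaCCGGAAGTccctgtgctt
Srsf5 (chr12:80945466-80945493, + strand): tggcaccgccCCGGAAGTgacgccagga
Sf3a1 (chr11:4160337-4160364, + strand): gagggcgggaCCGGAAGTgctcccgcgg
Sf3b2 (chr19:5295451-5295478, − strand): gattacgcaaCCGGAAGTttctggaagt
Snrpe (chr1:133610257-133610284, − strand): ggtcttgcttCCGGAAGTcgctttccga

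In these 5 the motif starts at positions −50, −23, −7, −13 and 6 from the annotated start, in the order printed. The matches not printed lay at −43 (*Srsf11*), −91 (*Sf3a3* and a second match of *Srsf5*), −179 (*Hnrnpd*) and −211 (*Srsf4*). Each position counts from the annotated start of its window, which need not be the outermost start of the gene. The stretch with the *Hnrnpd* match (chr5:99979100-99979127) lies inside that gene (chr5:99955935-99979130). The letters GGAATG, the core bound by TEAD factors, which are partners of the Vestigial-like proteins, were in 4 of the 45 genes (8.89%). Of all genes with A > 0 that had a window, 14.3% held them. The E-box CACGTG was in 6 (13.3%, against 12.0%), and the cyclic AMP response element TGACGTCA was in 2 (4.44%, against 3.73%). A match is a description of the letters in the window only.

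The rest of the splicing machinery also showed few differences of this size. Of 146 other splicing genes in 7 lists, 130 had A > 0, with a median M of 0.01, 0 lower and 2 higher. The other snRNP proteins (29 genes), which include proteins of U1 and U2, had a median of 0.03. Their most abundant gene, *Snrnp70*, which encodes the U1 70K protein, was at 226 and 236 TPM. The genes of U2AF and branch site recognition (9 genes) had a median of −0.05, with *U2af2*, whose protein binds the polypyrimidine tract, at 187 and 194 TPM. The Prp19 complex and catalytic step factors (23 genes) had a median of −0.02, with *Bud31* at 220 and 251 TPM, and the exon junction complex (6 genes) had a median of 0.02, with *Eif4a3* at 155 and 165 TPM.

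The remaining lists had medians further from 0 or a gene past the fold. Of 19 SR-like proteins and SR kinases, 16 lay below 0 (median −0.08), beside 6700 of all 11754 genes, whose median M was −0.05. The other scalings were not tried on the lists of other splicing genes. The most abundant of the SR-like genes, *Tra2b*, which encodes an exon-enhancer binding protein, was at 94.98 and 89.9 TPM. Of 16 genes of the SMN complex and snRNP assembly, which loads Sm rings onto small nuclear RNAs, 12 lay above 0 (median 0.21), beside 5054 of all 11754, and *Strap* was at 276 and 352 TPM (46545 and 54972 reads, M 0.35). None of the 16 was past 0.5, and 4 (*Ddx20*, *Gemin4*, *Strap* and *Gemin6*) were above 0.25, where the background was 14.4%. *Smn1* itself lay on the other side of 0, at 48.8 and 45.0 TPM (M −0.12).

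The 2 genes past the fold were both among 29 tissue-type splicing regulators, whose median was 0.01. *Rbpms2*, which encodes an RNA-binding protein of muscle and heart, was at 23.5 and 38.6 TPM in siCtrl and siVgll3 (2932 and 4465 reads, M 0.72, interval 0.65 to 0.79). *Celf4*, a regulator best known in brain, was at 1.71 and 5.62 TPM (433 and 1295 reads, M 1.72, interval 1.56 to 1.88). The most abundant of that list, *Pcbp1*, was at 425 and 427 TPM. Over all 130 genes, 1.54% were higher and none was lower, beside backgrounds of 5.73% and 11.4%.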

How the data were processed

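Gene tables from 1 RNA sequencing library of each condition, siCtrl and siVgll3, were used. TruSeq Stranded mRNA LT libraries had been read on a NovaSeq 6000. Quality control was by FastQC, trimming by Trimmomatic (minimum 36 bp), mapping to mm10 by HISAT2 and assembly of known transcripts by StringTie. Tool versions, the strand setting and the treatment of reads that map to several genes are not given in the sources used here. The authors deposited raw read counts per gene, without normalization. The authors also deposited TPM, which divide by transcript length and depth. Whether a read that fits a gene and its copy or an overlapping gene was counted on 1 row, on both or in part is unknown. Sums over such rows, and their intervals, take each read as counted once.

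M and A are named after the axes of the study's MA plot, whose limit for lower genes was used. Computing them from TPM and using the same limit with its sign reversed for higher genes were choices made here. All genes were in 1 table and the splicing factor genes were read from it. Intervals are 95% Clopper-Pearson intervals of the read ratio, conditional on the sum of both counts and shifted onto the TPM ratio. The calculation was checked on reads simulated with counting error alone, as the interval assumes. That check does not cover other sources of error in these libraries. With 140815237 and 125789276 reads they are narrow, and they cover counting error only. No test was possible, and edgeR 4.0.16 (TMM) and DESeq2 1.42.0 were used for scaling only. Near-identical genes were found with blastn 2.17.0 on GENCODE vM21 transcripts, and their limits were chosen after seeing the data. Analyses used Python 3.11.15, pandas 2.3.3 and scipy 1.17.1.

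Genes given with full values were those past the fold, 6 at each end of the order of M, the 3 most abundant of each family (SF3A and SF3B as 1 family) and the 3 with the largest length term (*Hnrnpa3*, *Srsf10* and *Snrpn*). In each list of other splicing genes these were the genes past the fold and the most abundant one. *Gm6793*, *Gm10052*, *Gm5643*, *Snurf*, *Snhg14*, the SMN genes other than *Strap* and further splicing factor genes were named after their values were seen. The genes and lists were chosen with earlier results of these data known. Alternatives tried were CPM, TMM and DESeq2 scaling, centring on the median gene, pseudocounts, filters, other folds, and leaving out or adding near-identical and overlapping genes. A single marker gene is not reported here.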

Additional observations from a re-analysis of the deposited data

How the results depend on the processing

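With 1 library per condition the values describe 2 libraries, and the spread between cultures is unknown. No paired analysis was possible because neither group had a second library, and none was left out in turn for that reason. No splicing factor gene had a predicted-gene symbol, so that filter left out none.

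The count of lower genes was 0 from TPM and 1 (*Hnrnpa3*) from CPM, TMM or DESeq2 size factors. The count of higher genes was 1 with A > 0, 2 without that filter (*Srsf12* added) and 0 at a fold of 1, and at 0.25 there were 3 lower and 3 higher. Scaling moved all medians upwards by about the same amount. The median M of 0.00 became 0.060 from CPM, 0.052 with TMM, 0.050 with DESeq2 and 0.049 after centring, and it was −0.057 over the 32 genes without a near-identical gene. The hnRNP median of −0.09 became −0.037, −0.045, −0.048 and −0.040 in that order, and −0.17 over 13 genes. The SF3B median of −0.02 changed sign, to 0.029, 0.021, 0.018 and 0.023, and was −0.088 over 5 genes. The SR median of 0.03 became 0.073 from CPM and 0.073 after centring, the SF3A median of 0.08 became 0.13 and 0.12, and the Sm and U1/U2 snRNP median of 0.12 became 0.17 from CPM and 0.18 over the 4 genes without a near-identical gene. As a share of reads in place of TPM, the genes took 0.848% in siCtrl and 0.870% in siVgll3. M of *Snrpn* was −0.78 with *Snurf* added and −0.69 with *Snurf* and *Snhg14* added, chosen after seeing the data. Of the 23 genes given with full values, 20 moved beyond their counting interval from CPM, 14 with TMM, 14 with DESeq2 and 16 after centring, with 2 changes of sign under each, and none under either pseudocount.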
